A study of Rattus norvegicus with 24 samples.

Results

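The constitutive proteasome subunit genes were taken as the rows whose symbol was Psma, Psmb, Psmc or Psmd followed by a number, without the inducible catalytic subunits Psmb8, Psmb9 and Psmb10 and the thymic subunit Psmb11. This gave 36 of the 17420 genes in the table, of which 16 encode or resemble core subunits (Psma, Psmb) and 20 belong to the regulatory particle (Psmc, Psmd). RNA was sequenced from the dissected neocortex and hippocampus of 24 Sprague-Dawley rat pups at embryonic day 18. The pups formed 4 groups of 6 by maternal treatment, and each group held 3 pups from each of 2 litters. Saline dams received saline on gestational day 17, and control dams were given a diet with 20.3% protein. MAM dams received methylazoxymethanol acetate, a DNA alkylating agent, at 22 mg/kg on gestational day 17. Poly I:C dams received the double-stranded RNA polyinosine:cytosine, which mimics a viral infection, at 7.5 mg/kg on the same day. Low Protein dams ate an isocaloric diet with 6.1% protein. Tissue from the injected dams was taken 18 hours after the injection. The labels name no injection for the Low Protein dams and no diet for the MAM and Poly I:C dams. The dam was treated but the pup was the replicate, so p-values over pups do not account for the treatment having been given to 2 dams per group.

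The proteasome is the protease that removes most ubiquitin-tagged proteins from the cytosol and nucleus. Its core is a barrel of stacked rings, in which the outer alpha subunits gate the entrance and the inner beta subunits include the catalytic Psmb5, Psmb6 and Psmb7. The regulatory particle caps the barrel: its Psmc subunits form a ring of ATPases that unfolds the substrate, and its Psmd subunits recognise and remove ubiquitin or hold the cap together. Neurons use it to clear damaged proteins and to set the level of short-lived proteins during differentiation. In cultured cells the subunit genes are known to be induced together when the protease is inhibited, mainly through the transcription factor NRF1 (the Nfe2l1 product), which binds antioxidant response elements.

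Values are the deposited TPM, which were scaled by the authors per genomic span of the gene, so a gene with long introns has a low value. Sequencing depth, estimated from the steps between low values, was 24970000 to 65010000 reads per pup. Of the 9 cortical marker genes listed, 7 were in the table and all 7 were above 0 in every pup, with sums of 204 to 411. A gene was tested where its mean value exceeded 1 in every group, which kept 5086 genes and 31 of the 36 members, 14 core and 17 regulatory. A member is described as called where its unadjusted p in limma was under 0.05, the p threshold the study used, with no limit on the fold change (the study added such a limit for Poly I:C and Low Protein). The adjusted p over all 5086 genes is given beside it.

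Most subunit genes were read deeply enough for small differences to be measured. The median estimated reads per pup ran from 804 for Psmb6 to 8580 for Psmd2, a large non-ATPase scaffold of the cap, which is a 10.7-fold range. The Saline means of the same 31 genes ran from 1.46 for Psmd1 to 48.9 for Psmb4, a 33.5-fold range. Across the 31 genes the Saline mean fell with genomic span (Spearman rho = -0.87, a description, since span is in the unit). The order of these values is therefore not an order of mRNA amounts, and the comparisons below stay within a gene. Within a group the coefficient of variation over pups was 6.57% at the median. It was lowest for Psmd13 in Saline (1.38%) and highest for Psmb6 in Low Protein (21.0%).

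**Figure D1:**
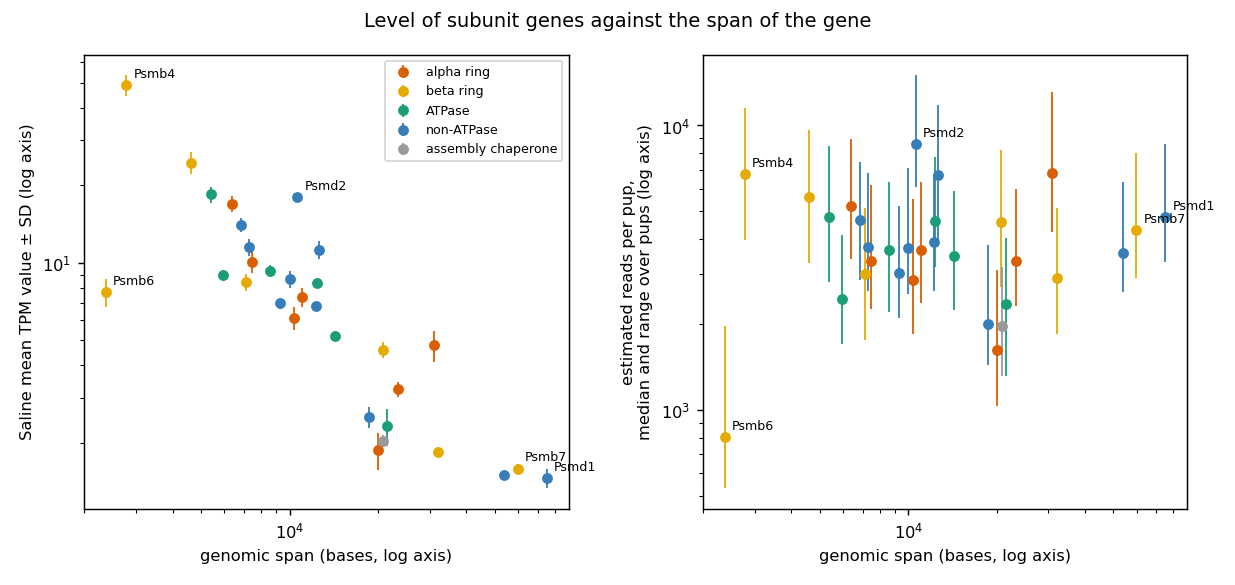
Both panels plot the genomic span of the 31 tested subunit genes (x, bases, log axis). The left panel gives the Saline mean TPM value with its SD over 6 pups (y, log axis), and the right panel gives the estimated reads per pup as the median and range over 24 pups (y, log axis). Values fall with span on the left, while on the right Psmb6 (804 reads) and Psmd2 (8580 reads) mark the ends and the other genes lie between them at all spans.

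Upstream sequences are shown for 3 members whose values differ below: Psmb5, the chymotrypsin-like catalytic subunit, Psmc1, an ATPase of the cap, and Psmc5, another ATPase of the same ring. They are the 150 bases before the RefSeq start of each gene in the GRCr8 build, 5′ to 3′ on the gene's strand, at chr15:32047380-32047529 (minus strand), chr6:125122347-125122496 (plus strand) and chr10:91687403-91687552 (plus strand). Capitals mark a match to the antioxidant response element in Psmb5 and to the ETS motif in Psmc1, and Psmc5 has neither in these bases.
Psmb5: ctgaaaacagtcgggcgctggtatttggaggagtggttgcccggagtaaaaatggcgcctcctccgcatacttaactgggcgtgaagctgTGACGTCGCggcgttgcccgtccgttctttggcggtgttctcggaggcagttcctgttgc
Psmc1: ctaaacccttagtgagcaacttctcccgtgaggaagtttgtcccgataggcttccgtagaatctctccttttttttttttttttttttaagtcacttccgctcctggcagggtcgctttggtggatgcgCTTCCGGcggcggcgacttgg
Psmc5: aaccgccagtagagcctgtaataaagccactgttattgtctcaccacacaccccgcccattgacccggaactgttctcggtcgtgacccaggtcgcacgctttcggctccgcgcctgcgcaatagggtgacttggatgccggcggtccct

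The letters of 4 short motifs were searched on both strands in windows of 250 bases before to 50 after the start, which RefSeq gives once for 31 of the 36 members. The antioxidant response element (TGACNNNGC) was in 7 of the 31 member windows (22.6%) and in 12.1% of all 33469 windows. It was in 4 of 14 core windows and 3 of 17 regulatory windows, and the core genes were Psma3, Psmb2, Psmb5 and Psmb6. The ETS motif (CCGGAAG) was in 11 member windows (35.5%) against 8.75% of all windows. The CCAAT box was in 16 (51.6%) against 37.5%. A part of the site of the nuclear respiratory factor (GCATGCGC) was in 1 (3.23%) against 2.47%. A match is only a match of letters in the window.

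Against Saline, the subunit genes of MAM pups differed in both directions. The catalytic subunit gene Psmb5 was higher, and the cap genes Psmc1, Psmd1 and Psmd12 were lower. These were 4 of 31 members (12.9%), and 11.2% of all genes tested passed the same threshold. The 3 lower members stood beside 8.18% of all genes called lower, and the 1 higher member beside 3.07% called higher. None of the 31 had an adjusted p under 0.05 in limma, where 0.0197% of all genes did, and none had MAM pups wholly outside the Saline range, where 0.786% of all genes did. The exact two-sided permutation test of 6 pups against 6 gave p under the threshold for 6 members, adding Psmc5 and Psmd11 to the same 4. This test was not run over all genes, so no background share stands beside its 6 members. The lowest p it could give was 0.00216.

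Psmd12, a scaffold of the lid of the cap, had the lowest limma p of the members. Its Saline values ran from 2.25 to 2.95 with a median of 2.48, and its MAM values from 2.16 to 2.39 with a median of 2.24. All but the lowest Saline pup lay above all 6 MAM pups. The difference was -0.15 on the log2 scale (SE 0.053, limma p = 0.0110, adjusted p = 0.413, exact permutation p = 0.0173).

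Psmc1 ran from 7.88 to 8.76 in Saline (median 8.38) and from 7.30 to 8.19 in MAM (median 7.71). The groups overlapped at the upper end of the MAM values. On the log2 scale MAM differed by -0.12 (SE 0.044, limma p = 0.0151, adjusted p = 0.416, exact permutation p = 0.0130). Psmd1, the other large scaffold of the cap beside Psmd2, ran from 1.28 to 1.65 in Saline (median 1.47) and from 1.16 to 1.40 in MAM (median 1.34). Its log2 difference was -0.15 (SE 0.061, limma p = 0.0238, adjusted p = 0.416, exact permutation p = 0.0411).

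Psmb5 went the other way. It ran from 20.6 to 26.9 in Saline (median 24.8) and from 23.9 to 29.4 in MAM (median 27.7), and 4 of the 6 Saline pups lay within the MAM range. For Psmb5 the log2 difference was 0.16 (SE 0.070, limma p = 0.0285, adjusted p = 0.416, exact permutation p = 0.0433). Single litters decided these calls. Without Saline litter 1 none of the 4 was called, with log2 differences of -0.08 for Psmd12, -0.09 for Psmc1, -0.10 for Psmd1 and 0.08 for Psmb5. Of all genes 3.2% were called in that setting. Without MAM litter 1 the calls of Psmb5 (0.11), Psmc1 (-0.09) and Psmd12 (-0.12) were lost, and without MAM litter 2 that of Psmd1 (-0.09).

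The other catalytic members were not called against Saline. Psmb6, the caspase-like subunit with the fewest estimated reads, ran from 6.19 to 8.85 in Saline (median 7.76) and from 7.42 to 10.5 in MAM (median 8.56), a log2 difference of 0.18 (SE 0.12, limma p = 0.156, exact permutation p = 0.162). Psmb7, the trypsin-like subunit, ran from 1.50 to 1.70 in Saline (median 1.60) and from 1.39 to 1.65 in MAM (median 1.56), a log2 difference of -0.04 (SE 0.051, limma p = 0.402, exact permutation p = 0.355) that turned to 0.06 where the dependence on gene length was removed. Neither difference was larger than the spread between pups.

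**Figure D2:**
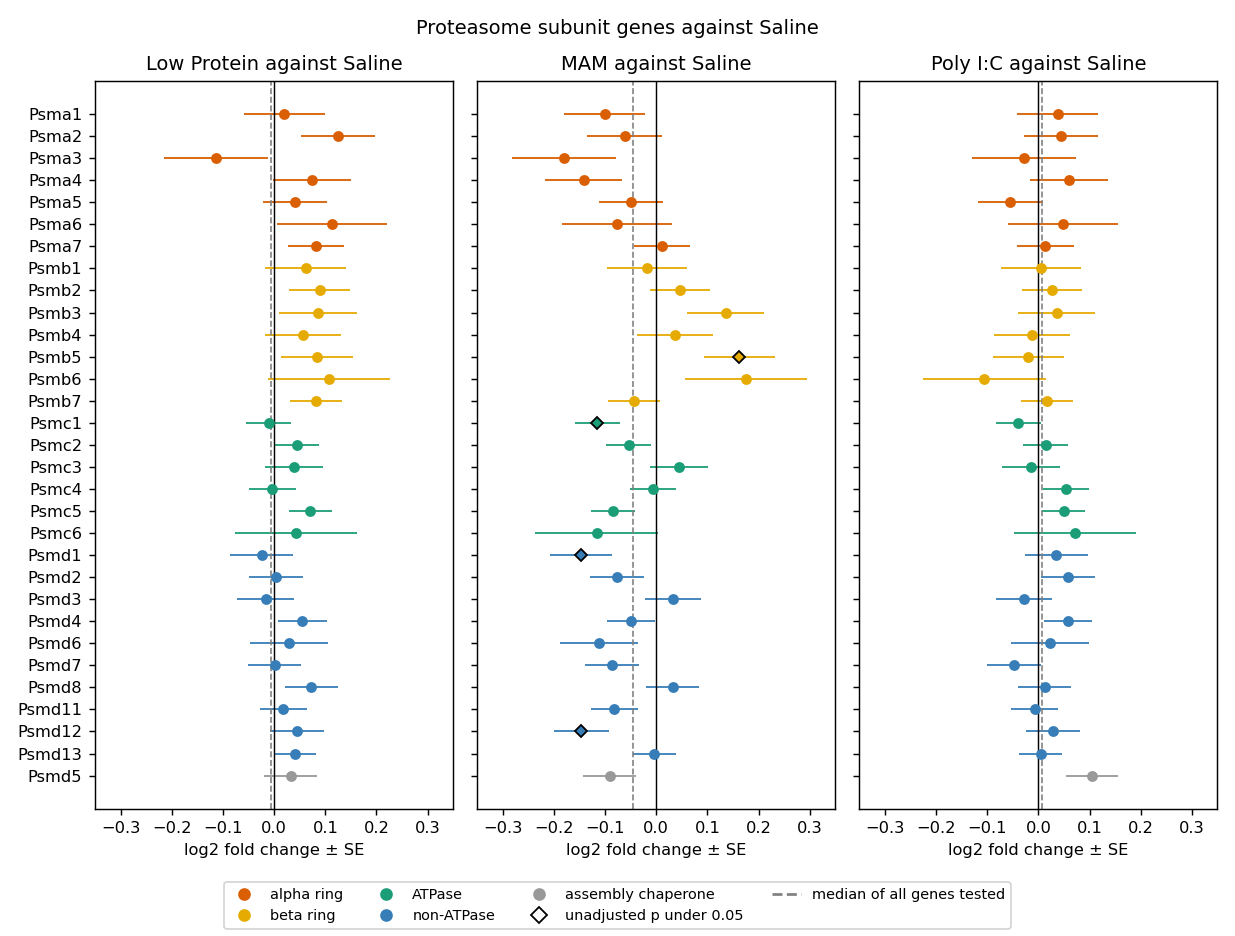
Each panel plots the log2 fold change of the 31 tested subunit genes against Saline (x) with its standard error from limma, 6 pups against 6, by gene (y) and colored by role. Diamonds mark an unadjusted p under 0.05 and the dashed line is the median of all 5086 genes, so the 4 called members (Psmb5, Psmc1, Psmd1, Psmd12) all stand in the MAM panel.

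Counts by role are given for the MAM differences. Among regulatory members, 14 of 17 had a log2 difference below 0 and the median was -0.08, beside a median of -0.05 and 67.9% below 0 over all genes tested. Among core members, 8 of 14 were below 0 with a median of -0.03. Within the core the alpha ring had 6 of 7 below 0 and a median of -0.08, and the beta ring had 5 of 7 above 0 and a median of 0.05. Psma3, an alpha subunit, had the lowest MAM difference of all members (-0.18, SE 0.10, limma p = 0.0883, exact permutation p = 0.136). These medians carry no test.

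Average values over the members were also taken in each pup, as the mean log2 value relative to the Saline mean. For the regulatory members the 6 MAM pups lay between -0.11 and -0.02 (median -0.05) and the 6 Saline pups between -0.03 and 0.03. Of the 6 MAM pups 5 were below the lowest Saline pup, and over the non-ATPase members alone all 6 were. Over all genes the MAM median was also below 0, as given above, and the near separation was not seen under other scalings. Under the median of ratios, the upper quartile, the library size and with gene length removed, 2 MAM pups were below the lowest Saline pup in each, and 4 of 6 were below 0. Under the deposited scaling both litters of MAM were below 0, at -0.05 and -0.08. For the core members the MAM pups lay between -0.16 and 0.09 and the Saline pups between -0.06 and 0.10, so the groups overlapped. The SD within groups was 0.0887 for the core and 0.0359 for the cap.

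**Figure D3:**
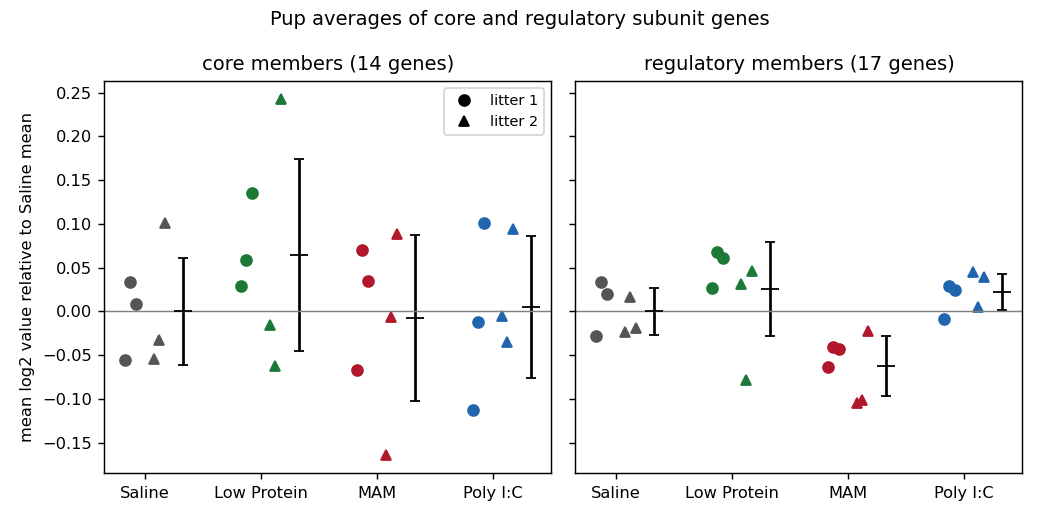
Points are the mean log2 value of the core (left, 14 genes) and regulatory (right, 17 genes) members in each pup relative to the Saline mean (y), by maternal treatment (x); circles are litter 1, triangles litter 2, and bars the mean ± SD of 6 pups. On the right all 6 MAM pups lie below 0, between -0.11 and -0.02, under the deposited scaling (4 of 6 under the other scalings), and on the left the 4 groups overlap.

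The beta ring minus the alpha ring gave a further contrast between pups. The difference lay between 0.11 and 0.21 in the 6 MAM pups, so every MAM pup was above 0 and the SD was 0.036. In Saline it ran from -0.24 to 0.23 with an SD of 0.17, and the MAM pups lay inside that range. The Saline, Low Protein and Poly I:C litters numbered 1 had means of -0.08, -0.07 and -0.07, and the litters numbered 2 had means of 0.08, 0.13 and 0.02. The MAM litters had means of 0.14 and 0.17. The median span was 11020 bases in the alpha ring and 7097 bases in the beta ring. This contrast is not given with gene length removed, and the part of span in it was not tested.

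How the values were scaled mattered for MAM. Under the deposited scaling 72.7% of all called genes were lower in MAM, and under the median of ratios, the upper quartile and the library size 39.4%, 43.5% and 42.7% were. Called members fell from 4 to 2 under each of those 3 scalings (Psmb5 higher, Psmd12 lower), beside 9.93%, 9.71% and 9.81% of all genes. They fell to 1 (Psmb5) where the dependence on gene length was removed, beside 8.16% of all genes. Psmd1, the member with the longest span among the called, was at -0.03 and not called in that last setting. The regulatory median, -0.08 under the deposited scaling, was -0.0432 under the median of ratios, -0.0492 under the upper quartile, -0.0448 under the library size and -0.0315 with gene length removed. Over all genes the MAM difference also moved with span: its median was 0.00 in the shortest class of genes, -0.04 in the middle and -0.09 in the longest, and the members in those classes had medians of 0.03, -0.06 and -0.08.

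Of the marker lists read, only the microglial list separated MAM from Saline pups. The cortex, blood, endothelium, meninges, striatum and ganglionic eminence, thalamus and choroid plexus sums overlapped. All sums were taken under the deposited scaling only. The summed values of 5 microglial markers were 8.69 to 11.3 in MAM and 7.54 to 8.53 in Saline, with all 5 genes above 0 in every pup, so the groups did not overlap. Their part in the subunit differences was not tested. In bulk tissue fewer cells of a type and less RNA per cell cannot be told apart.

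Low Protein pups showed no called member against Saline in limma, where 8.24% of all genes were called, and the exact permutation test also gave 0. None had an adjusted p under 0.05 (0% of all genes), and none had ranges that did not overlap (0.747% of all genes). The members leaned upward all the same: 26 of 31 differences were above 0, including 13 of 14 core members and all 7 of the beta ring, beside 47.8% of all genes. The core median was 0.08 and the regulatory median 0.03, against -0.01 over all genes. The core median was 0.0441 without the Low Protein pup 2-3, the pup with the highest core average (0.243), and 0.0532 without Saline litter 1. Without Low Protein litter 1 the differences below 0 rose from 5 to 13 of 31. The largest was Psma2, an alpha subunit, at 0.13 (SE 0.073, limma p = 0.0987, exact permutation p = 0.152), from 5.19 to 6.77 in Saline (median 6.26) and 6.09 to 7.66 in Low Protein (median 6.62). Of the 6 Low Protein pups, 4 were within the Saline range and the other two above it.

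One Low Protein pup, 2-2, stood apart from its group. Its regulatory average was -0.08, and the other 5 Low Protein pups were at 0.03 to 0.07. The same pup had the highest sums of its group for the blood, microglia, endothelium, meninges and choroid plexus markers. For the meninges the sum was 31.3, where the Low Protein median was 8.27. Poly I:C pup 2-2 also had the highest sums of its group for endothelium, meninges and choroid plexus, with a regulatory average of 0.005. The part of these cells in the subunit values of either pup was not tested. Without Low Protein pup 2-2, 1 of 31 members, Psmb7, was called higher in Low Protein, beside 6.98% of all genes called in either direction.

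Poly I:C pups also showed no called member, where 9.95% of all genes were called, none by adjusted p (0% of all genes) and none without overlap (0.492% of all genes). The core and regulatory medians were both 0.02, beside 0.01 over all genes. Psmd5, a chaperone that binds ATPases while the cap is assembled, came nearest. It ran from 1.90 to 2.18 in Saline (median 2.05) and from 2.05 to 2.403 in Poly I:C (median 2.17), a log2 difference of 0.10 (SE 0.051, limma p = 0.0530, adjusted p = 0.508, exact permutation p = 0.0498).

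Intervals were taken from the limma fit under the deposited scaling, with pups as the replicates. They do not account for treatment having been given to the dam, so they set no limit on a missed treatment effect. The 95% intervals of all 31 members spanned -0.39 to 0.42 for MAM, -0.32 to 0.35 for Low Protein and -0.35 to 0.32 for Poly I:C on the log2 scale. The median standard error was 0.056.

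Differences among the 4 groups were then asked for in an F test. It called 5 members, Psma4, Psmc5, Psmd1, Psmd12 and Psmd5, beside 16.4% of all genes, and 0 by adjusted p beside 0.413%. The lowest adjusted p in this limma F test was 0.155 for Psmd12, followed by 0.159 for Psmc5. In all 5 the MAM group had the lowest mean. The treatments were therefore compared with each other in the same fit, where MAM pups served in both contrasts.

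MAM pups were lower than Low Protein pups in 10 of 31 members (32.3%), beside 11% of all genes called and 8.79% called lower. The 10 were the alpha subunits Psma2 and Psma4, the catalytic Psmb7, the ATPases Psmc1, Psmc2 and Psmc5, the ubiquitin receptor Psmd4, the lid subunits Psmd11 and Psmd12, and the chaperone Psmd5. No member was called higher in MAM. By adjusted p 0 members were called, beside 0.0983% of all genes, and 1, Psmc5, had ranges that did not overlap, beside 1.1% of all genes. The regulatory median was -0.10 and the core median -0.07, against -0.03 over all genes. Under the median of ratios, the upper quartile, the library size and the removal of gene length, 3 members were called in each, Psma4, Psmc5 and Psmd12. Those 3 of 31 stood beside 10%, 9.83%, 9.83% and 10.4% of all genes, so the share of members above that of all genes was seen under the deposited scaling and in none of these 4 settings. Without Low Protein litter 1 only 2 were called, beside 5.27% of all genes.

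MAM pups differed from Poly I:C pups in 9 members, 7 lower and 2 higher, and these 29.0% stood beside 23.1% of all genes. The lower members were Psma4, Psmc5, Psmd1, Psmd2, Psmd4, Psmd12 and Psmd5, beside 17.1% of all genes called lower. The higher members were the catalytic Psmb5 (log2 difference 0.18, SE 0.070, limma p = 0.0151, exact permutation p = 0.0195) and Psmb6 (0.28, SE 0.12, limma p = 0.0277, exact permutation p = 0.0433). By adjusted p 1 member was called, Psmd5, beside 3.46% of all genes. Among cap members 4 had ranges that did not overlap, Psmc5, Psmd1, Psmd12 and Psmd5, beside 4.35% of all genes. Under the median of ratios, the upper quartile, the library size and the removal of gene length, 7, 8, 8 and 6 members were called, beside 22.6%, 23%, 22.9% and 21.5% of all genes, and 0 by adjusted p. Both contrasts used the same MAM pups, so they are not separate evidence.

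**Figure D4:**
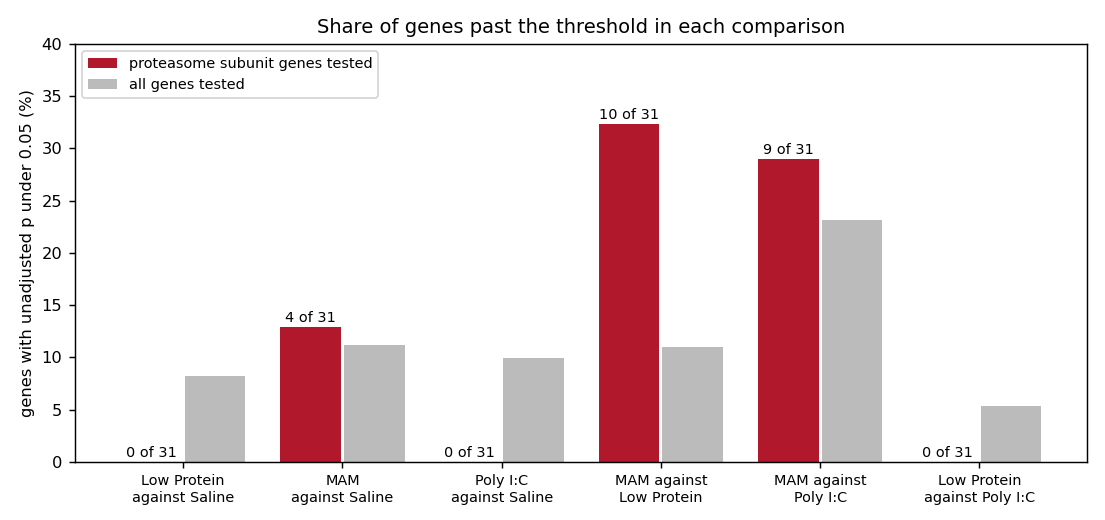
Bars give the percentage of the 31 tested subunit genes (red) and of all 5086 tested genes (grey) with an unadjusted limma p under 0.05 (y) in each pairwise comparison (x), with the number of members above the red bars. The bars are nearly level for MAM against Saline (12.9% and 11.2%) and furthest apart for MAM against Low Protein (32.3% and 11%), where 3 of 31 members stood beside 9.83% to 10.4% of all genes under the other scalings, which are not drawn.

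Psmc5 separated MAM from both other treatments. This ATPase ran from 8.11 to 8.65 in MAM (median 8.45), from 8.82 to 9.96 in Low Protein (median 9.23) and from 8.78 to 9.56 in Poly I:C (median 9.30). Every MAM pup was below every pup of both groups, while Saline pups, from 8.39 to 9.43, lay across them. The log2 difference was -0.16 from Low Protein (SE 0.042, limma p = 0.00122, adjusted p = 0.151, exact permutation p = 0.00216) and -0.13 from Poly I:C (SE 0.042, limma p = 0.00409, adjusted p = 0.0682, exact permutation p = 0.00216). Against Saline it was -0.08 (SE 0.042, limma p = 0.0570, exact permutation p = 0.0433).

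Psmd12 in Low Protein ran from 2.37 to 2.75 (median 2.60) and in Poly I:C from 2.46 to 2.68 (median 2.52). Only the lowest Low Protein pup, the pup 2-2 described above, came within the MAM range of 2.16 to 2.39. The log2 difference was -0.19 from Low Protein (SE 0.053, limma p = 0.00140, adjusted p = 0.161, exact permutation p = 0.00649). From Poly I:C it was -0.18 (SE 0.053, limma p = 0.00297, adjusted p = 0.0584, exact permutation p = 0.00216). Psmd12 kept an unadjusted p under the threshold in each of the 44 alternative settings run for it, in both contrasts.

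Psmd5 ran from 1.67 to 2.01 in MAM (median 1.95) and from 1.96 to 2.17 in Low Protein (median 2.11). The highest MAM pup lay below the lowest Poly I:C pup, at 2.05. The difference from Poly I:C was -0.20 (SE 0.051, limma p = 0.000855, adjusted p = 0.0374, exact permutation p = 0.00216), and that from Low Protein was -0.12 (SE 0.051, limma p = 0.0247, adjusted p = 0.372, exact permutation p = 0.0152). The adjusted p against Poly I:C was under 0.05 in 24 of 44 alternative settings, with a range of 0.0127 to 0.285. With gene length removed the Psmd5 difference from Poly I:C was -0.12 and not called, even unadjusted, and that from Low Protein was not called under any of the 4 other scalings (-0.10 to -0.08).

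Psmd1 ran from 1.41 to 1.56 in Poly I:C (median 1.50), all above the MAM pups, of which the highest was at 1.40. The log2 difference was -0.18 (SE 0.061, limma p = 0.00637, adjusted p = 0.0809, exact permutation p = 0.00216). With the dependence on gene length removed it was -0.08 and not called. From Low Protein, where pups ran from 1.30 to 1.55 (median 1.46), it was -0.12 (limma p = 0.0555, exact permutation p = 0.0758).

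Psma4 was the one core member called in the F test. This alpha subunit ran from 8.19 to 10.1 in MAM (median 9.24), 9.27 to 11.7 in Poly I:C (median 10.5), 9.08 to 11.8 in Low Protein (median 10.9) and 8.84 to 11.5 in Saline (median 10.1). All 4 groups overlapped. The log2 difference was -0.22 from Low Protein (SE 0.076, limma p = 0.00879, adjusted p = 0.276, exact permutation p = 0.0238) and -0.20 from Poly I:C (SE 0.076, limma p = 0.0135, adjusted p = 0.116, exact permutation p = 0.0238). Without Low Protein litter 1 the first was -0.14 and not called, and without Poly I:C litter 1 the second was -0.14 and not called.

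**Figure D5:**
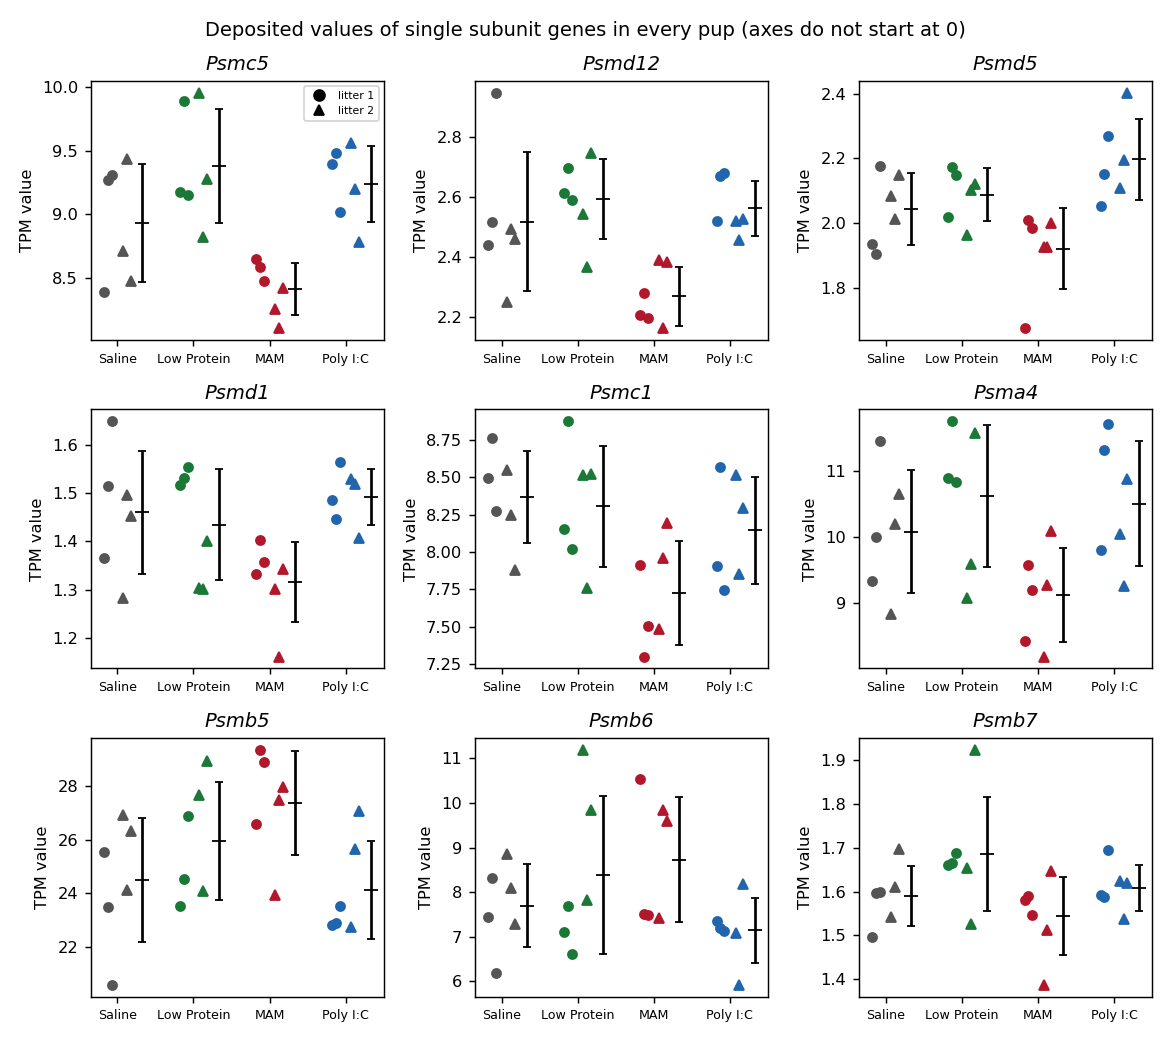
Each panel plots the deposited TPM value of 1 subunit gene in every pup (y, not starting at 0) by maternal treatment (x); circles are litter 1, triangles litter 2, and bars the mean ± SD of 6 pups. For Psmc5 the 6 MAM pups (8.11 to 8.65) lie below all Low Protein and Poly I:C pups, and for Psmb5 the MAM mean is above the other 3.

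Low Protein and Poly I:C pups did not differ in any member in limma, where 5.31% of all genes were called, 0.0393% by adjusted p and 0.315% without overlap. The core median difference was 0.06 and the regulatory median 0.02, with -0.01 over all genes.

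Genes that work with the proteasome were read from a list of 36 symbols, of which 30 were in the table and 19 were tested. In MAM 6 of the 19 were called in limma, 2 higher and 4 lower, in Low Protein 2, both higher, and in Poly I:C 0. The same 11.2%, 8.24% and 9.95% of all genes are the background, and none of the 19 had an adjusted p under 0.05.

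Both directions occurred among the called genes. In MAM the segregase Vcp, which extracts ubiquitinated proteins from complexes, was lower (-0.14, exact permutation p = 0.00866) with its cofactor Nploc4 (-0.11, exact permutation p = 0.0325). The shuttle receptors Rad23b (-0.16, exact permutation p = 0.0130) and Ubqln2 (-0.19, exact permutation p = 0.0173) were lower, and the core assembly chaperone Psmg4 was higher (0.26, exact permutation p = 0.0476). Other genes of the same roles were not called in limma. The chaperone Psmg1 was at -0.16 (exact permutation p = 0.0671), the shuttle Ubqln4 at -0.04 (exact permutation p = 0.424) and the cofactor Ufd1l at -0.08 (exact permutation p = 0.152). The shuttle Ubqln1 was at -0.10 (limma p = 0.0768, exact permutation p = 0.0108). In Low Protein, Ubqln2 was at -0.14 (limma p = 0.0784, exact permutation p = 0.0390). The partner genes were read under the deposited scaling only, where 72.7% of all genes called in MAM were lower. The immunoproteasome subunit Psmb10 was higher in MAM (0.19, exact permutation p = 0.0238) and in Low Protein (0.20, limma p = 0.0241 but exact permutation p = 0.102). The other inducible subunits, Psmb8 and Psmb9, had values too low for the fit and were read by the exact permutation test alone. Psmb8 had a mean of 0.250 in Saline, 0.407 in Poly I:C (exact permutation p = 0.00649), 0.347 in MAM (exact permutation p = 0.0541) and 0.304 in Low Protein (exact permutation p = 0.812). Psmb9 had a mean of 0.189 in Saline, 0.259 in Poly I:C (exact permutation p = 0.0130), 0.248 in MAM (exact permutation p = 0.00866) and 0.230 in Low Protein (exact permutation p = 0.0584). In Low Protein the small lid subunit Sem1 was higher (0.17, limma p = 0.0192, exact permutation p = 0.00216, with no overlap of pups).

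The 5 members that were not tested had low values. Psmd9 and Psmd10, chaperones of the cap, and Psmd14, the deubiquitinase of the lid, had Saline means of 0.889, 0.566 and 0.558. The Psma3 copy Psma3l was at 0.180, and reads shared with Psma3 cannot be told apart in the deposited values. The testis subunit Psma8 was at 0.000171, close to the offset of 0.0001 that the authors added, and is listed near 0. In a fit of 15098 genes without the filter, Psma3l was called higher in Poly I:C (log2 difference 0.65, adjusted p = 0.512) and in Low Protein (0.56, adjusted p = 0.732), and Psmd10 in Low Protein (0.26, adjusted p = 0.719). In that fit 8.58% of all genes were called in Poly I:C and 6.76% in Low Protein. No adjusted p was under 0.05 for the 5, and Psmd14 differed by no more than 0.09 in size in any group.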

How the data were processed

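RNA of 24 pups was sequenced by the authors (stranded mRNA libraries, paired reads). Per their methods, reads were trimmed in Partek Flow, aligned with STAR v2.4.1d to rn6 and counted on RefSeq transcripts. The deposited values are TPM, normalized by the authors with an offset of 0.0001 and, as the values show, per genomic span, with a total of 70350.1 in each pup. They were analysed as log2 of the deposited TPM with limma 3.58.1 in R 4.3.3, 4 groups in 1 fit, for genes with a mean above 1 in every group. Adjusted p-values are Benjamini-Hochberg over all 5086 genes. Exact two-sided permutation tests used 924 splits. The fit was tested on simulated data. Depth was estimated from the steps of low values, where 49.29% to 54.44% of values lay within 0.05 of a whole read (10% by chance). Spans came from RefSeq GRCr8 for 97.39% of genes and served as lengths only.

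Members and lists were chosen with earlier results of these data known. Values in every group are given for members called against Saline or in the F test and for the catalytic members. The contrasts between treatments are given for all tested members, which was chosen after values were seen. Alternatives covered the filter, pseudocount, scaling, gene length, groups in the fit, litter, replicate block, variance model and leaving out each pup or litter. Some genes of the list of proteasome partners are not reported here.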

Additional observations from a re-analysis of the deposited data

Results flagged for a closer look

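Of the 44 sets of 6 pups that were checked, 2 held a pup far from the other 5, and chance alone marks about 5% of such sets. Psmd5 in MAM pup 1-1 was at 1.67, where the next MAM pup was at 1.92. The regulatory average of Low Protein pup 2-2 was -0.0785 relative to Saline, where the next Low Protein pup was at 0.0262.

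Among the 5 members called in the F test, the difference from Saline under MAM was also set against that under each other treatment by the limma contrast between the treatments, and the contrasts with an unadjusted p under 0.05 are given. Over all 31 members 10 passed for MAM minus Low Protein and 9 for MAM minus Poly I:C, beside 11% and 23.1% of all genes. MAM minus Low Protein was -0.216 for Psma4 (adjusted p = 0.276), -0.155 for Psmc5 (adjusted p = 0.151), -0.191 for Psmd12 (adjusted p = 0.161) and -0.123 for Psmd5 (adjusted p = 0.372). MAM minus Poly I:C was -0.202 for Psma4 (adjusted p = 0.116), -0.134 for Psmc5 (adjusted p = 0.0682), -0.182 for Psmd1 (adjusted p = 0.0809), -0.175 for Psmd12 (adjusted p = 0.0584) and -0.196 for Psmd5 (adjusted p = 0.0374).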

How the results depend on the processing

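There were 45 alternatives: 24 left out a pup, 8 left out a litter and 13 changed another choice. The stricter filter removed genes with lower values and the F test had no fit of only 2 groups, which left 44 for those results. The core medians and the Poly I:C regulatory median moved by less than the spread between pups in all of them, but 2 core medians took both signs, that of MAM between -0.0587 and 0.0243 and that of Poly I:C between -0.0141 and 0.0408. Psmb7 in MAM was 0.0644 with gene length removed (-0.04 as reported). With pups or litters left out, called members numbered 0 to 6 in MAM (0 without Saline litter 1), beside 3.2% to 16.9% of all genes. They numbered 0 to 1 in Low Protein (5.33% to 10.4%), 0 to 1 in Poly I:C (4.48% to 19%) and 2 to 7 in the F test. Between treatments they numbered 2 to 14 for MAM minus Low Protein (5.27% to 19.5%) and 5 to 10 for MAM minus Poly I:C (14.5% to 25.3%). For Low Protein minus Poly I:C they numbered 0 to 2 (2.56% to 14.8%). The regulatory median in Low Protein ran from -0.0064 (without Low Protein litter 1) to 0.0640. With litter means, called members were 0 in MAM (4.92% of all genes) and 0 in the F test. Between treatments they were 6 for MAM minus Low Protein (6.92% of all genes) and 4 for MAM minus Poly I:C (15.1%). With only the 2 groups compared in the fit, they were 5 for MAM minus Low Protein (12.1%). Without the filter they were 2 in Low Protein (6.76% of all genes), 1 in Poly I:C (8.58%) and 1 for Low Protein minus Poly I:C (4.72%). With means above 5 they were 3 in the F test and 6 of 20 for MAM minus Low Protein (11.8% of all genes). Under the median of ratios, upper quartile and library size they were 1 in Low Protein in each (9.18%, 9.3% and 9.24% of all genes). In MAM they were 2 in each (9.93%, 9.71% and 9.81%). For MAM minus Low Protein they were 3 in each (10%, 9.83% and 9.83%), and in the F test 2, 3 and 2. With gene length removed they were 1 in MAM (8.16% of all genes), 2 in the F test and 3 for MAM minus Low Protein (10.4%). No share of all genes is given for the F test in these settings. The regulatory median in MAM was -0.0432 under the median of ratios, -0.0448 under the library size and -0.0315 with gene length removed. The causes of these changes were not tested.

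With the replicate block of the pup number, 8 members were called in MAM, beside 15.6% of all genes. In Low Protein 1 was called (11.7% of all genes) and in Poly I:C 1 (12.8%). Between treatments 14 were called for MAM minus Low Protein (14%) and 13 for MAM minus Poly I:C (28%). For Low Protein minus Poly I:C 1 was called (6.96%). Of the 13, 4 were called by adjusted p, for which the share of all genes is not given. Same-numbered pups of different groups correlated at r = -0.42 to 0.56 in their deviations from the group means, over 0.1 in 22 of 36 pairs. Of the 24 pups, 8 correlated best with their own number. No chance level was taken for these counts, so they cannot decide whether the number pairs the pups. The main fit treated the pups as unpaired. With the replicate block of the number within the litter, chosen after seeing the data, called members were 7 in MAM, 1 in Low Protein, 1 in Poly I:C and 8 in the F test. Against Saline, 14.2%, 11.2% and 12.7% of all genes were called in that setting. The share for the F test is not given. Among Psmc5, Psmd12 and Psmd5 against Poly I:C, leaving out pups or litters ended 1 call, that of Psmc5 without MAM litter 2.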

Other observations

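The last digit of the pup number went with the core subunit values in every group. The core average of the pup numbered 3 was above that of the pup numbered 1 in all 8 litters, by 0.06 to 0.26 on the log2 scale, and the regulatory average was above in 7 of 8. Over all tested genes 4.78% were higher in the pup numbered 3 in all 8 litters and 10.3% were lower. Of the 31 members 7 were higher in all 8 (Psma2, Psma5, Psmb1, Psmb2, Psmc6, Psmd5 and Psmd6), and 1 regulatory member was lower in all 8. The median log2 difference of the pup numbered 3 from the pup numbered 1 was 0.157 over core members and -0.0034 over regulatory members. The labels do not say what this digit records. The pattern was noticed in these data and was not tested.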
